A study of Rattus norvegicus with 4 samples.

Results

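Tight junctions are belts of membrane proteins that seal the gaps between neighbouring epithelial cells. In the colon they hold back the contents of the lumen and set which ions pass between cells, and some forms of colitis are known to disturb them. Claudins form the strands of the junction, occludin and junctional adhesion molecules lie beside them, scaffold proteins such as ZO-1 and cingulin tie them to actin, and E-cadherin of the adherens junction below holds the cells together. The genes described here are 9 genes chosen by name from these roles, namely Cldn1, Cldn3, Cldn5, Cldn7, Ocln, F11r, Cdh1, Tjp1 and Cgn, of which 7 had a measured row. Tjp1, the gene of ZO-1, and Cgn, the gene of cingulin, could be matched to no row and are not analysed here. Each of the 7 genes had 1 row, a curated RefSeq transcript, out of 18350 measured rows and 6968 named genes.

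Total RNA was taken from colon tissue of male Sprague Dawley rats, either controls or given MSCs (the MSCT group). The 4 samples, 2 control and 2 MSCT, were each hybridized to their own one-color NimbleGen array. The MSCT rats had colitis induced with 2,4,6-trinitrobenzene sulfonic acid (TNBS) and then received GFP-labeled mesenchymal stem cells by the tail vein. The control rats received no MSCs. They are called IBD rats in the study's design and normal rats in the sample descriptions, so whether they carried the colitis is not settled and the group is named control here. The day after transplantation is not settled either, since the sources differ. The pieces came from colon lesions by the methods and hold the whole mix of cells there. For bulk tissue of this kind, fewer cells of a type and less RNA per cell cannot be told apart. The question asked of the arrays was how the MSCT group differed from the control group, here for the genes of the epithelial barrier.

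The values are linear intensities per transcript, used on the log2 scale. Array medians lay between 848 and 893 over all measured rows. Differences are MSCT minus control in log2 units, and p-values come from limma fitted to all measured rows, with Benjamini-Hochberg adjustment over all of them. The smallest two-sided p that an exact permutation of 2 against 2 arrays allows is 0.333. Smaller p-values here rest on assumed normal errors, and those of limma also on a variance shared between rows. The 2 arrays of a group are labeled as replicates and are taken here as separate rats. This small number limits how precise each value is.

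None of the 7 measured tight junction genes was called different between the groups by limma. The number with an unadjusted p under 0.05 was 0 of 7, where 12.0% of all measured rows and 7.72% of the brightest 25% of rows were called. The unadjusted p-values ran from 0.106 for F11r to 0.960 for Cldn1, and the adjusted ones from 0.504 to 0.989. No row of the whole table passed an adjusted p of 0.05 (0% of 18350), while 2196 had an unadjusted p under 0.05. A screen that also asked for a fold change over 2 called 4.63% of all rows and 0 of the 7 genes. For 6 of the 7 genes the 95% interval of the default limma fit lay inside 2-fold in both directions, and Cldn5 was the exception. Intervals are given for this fit alone and can be wider under another estimate of the variance. They therefore do not exclude 2-fold differences, least of all for Cldn1 and Ocln, whose replicates were far apart in 1 group. In 5 of the 7 genes the size of the difference was under 0.2.

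**Figure D1:**
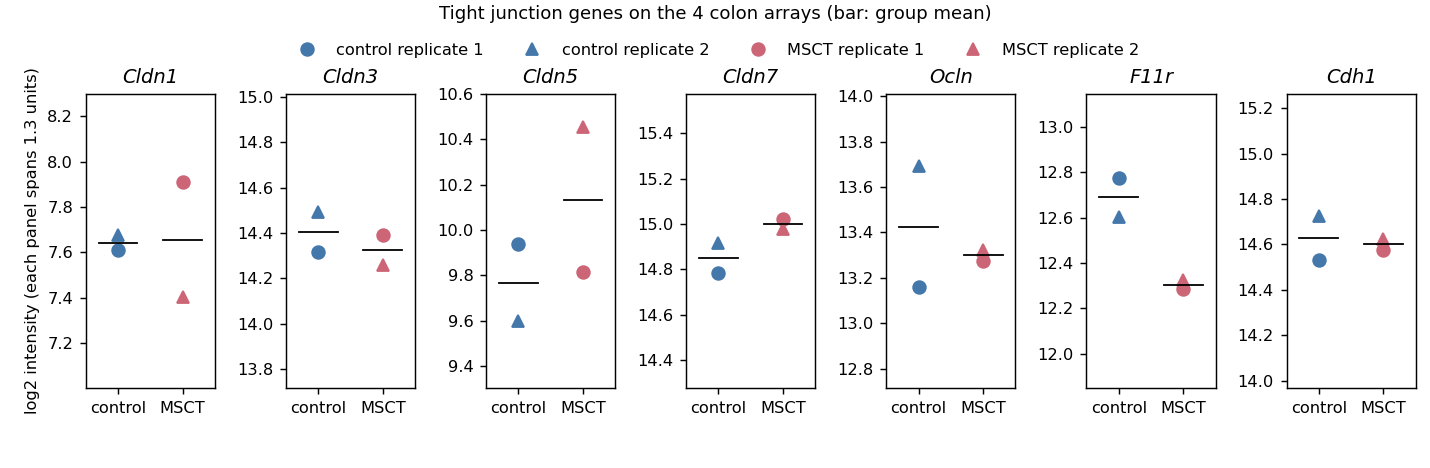
Log2 intensity of each tight junction gene (y axis, each panel spanning the same range) on the control arrays (blue) and MSCT arrays (red), with circles for replicate 1, triangles for replicate 2 and bars for group means. The groups are apart for F11r and Cldn7 and overlap for the other 5 genes, and the replicates lie furthest apart for Cldn5, Ocln and Cldn1.

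Among the claudins, Cldn3 and Cldn7 gave bright signals that differed little between arrays. Cldn3 (NM_031700), which encodes a sealing claudin of the gut epithelium, had control intensities of 20408 and 23030 and MSCT intensities of 21473 and 19621. The groups overlapped, with means of 14.40 ± 0.12 and 14.33 ± 0.09 (SD, n = 2 each) on the log2 scale. The difference was -0.08 with a standard error of 0.19, a fold of 0.947 with a 95% interval from 0.661 to 1.36. Cldn7 (NM_031702), whose protein lies along the lateral membrane of intestinal epithelial cells as well as in the junction, was at 28173 and 30914 in the controls and reached 33285 and 32268 after MSCT. Both MSCT arrays were above both control arrays. The difference of 0.15 (standard error 0.19, limma adjusted p = 0.768) was smaller than its standard error, and its interval as a fold ran from 0.787 to 1.57. After quantile normalization the difference of Cldn7 was 0.09 and the groups overlapped.

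Cldn1 and Cldn5 were less repeatable. Cldn1 (NM_031699), a sealing claudin also known from the skin barrier, was among the dimmest 25% of rows, with control intensities of 195 and 205 and MSCT intensities of 240 and 169. The highest and the lowest value both came from the MSCT group, so the replicates of that group were further apart than the group means. The difference was 0.01 (standard error 0.25), with an interval as a fold from 0.637 to 1.60. Without MSCT replicate 1 it was -0.24 and without MSCT replicate 2 it was 0.27, so its sign is not settled. Cldn5 (NM_031701), the main claudin of endothelial cells and also found in gut epithelium, had control intensities of 982 and 775 and MSCT intensities of 901 and 1403. MSCT replicate 2 stood above the other arrays, and MSCT replicate 1 lay between the 2 control arrays. The means were 9.77 ± 0.24 and 10.13 ± 0.45 (SD, n = 2 each), a difference of 0.37 with the largest standard error of the 7 genes, 0.30 (limma adjusted p = 0.656). The interval as a fold ran from 0.737 to 2.25, so a 2-fold difference of Cldn5 lies within it. Without MSCT replicate 2 the difference was 0.05, and without MSCT replicate 1 it was 0.69.

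Occludin, a 4-pass membrane protein that lies in the strands with the claudins, was most variable within the control group. Ocln (NM_031329) had control intensities of 9140 and 13237 and MSCT intensities of 9910 and 10252. Both MSCT values lay between the control values, which were 0.53 apart on the log2 scale against 0.05 for the MSCT arrays. The difference was -0.13 (standard error 0.25), with an interval as a fold from 0.572 to 1.47. It was -0.39 without control replicate 1 and 0.14 without control replicate 2, so the sign depends on which control array is kept.

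F11r had the largest difference of the 7 genes in size and the smallest p. It encodes junctional adhesion molecule A, an immunoglobulin-like protein of the junction that is also found on leukocytes, platelets and endothelial cells. F11r (NM_053796) had control intensities of 7007 and 6225 and MSCT intensities of 4990 and 5132. Both MSCT arrays were below both control arrays, and the replicates were close in each group, with log2 means of 12.69 ± 0.12 for control and 12.31 ± 0.03 for MSCT (SD, n = 2 each). The difference was -0.38 with a standard error of 0.19, a fold of 0.766 with an interval from 0.539 to 1.09 (limma adjusted p = 0.504). It was negative with any 1 array left out, between -0.47 and -0.30. Its call depended on how the variance was estimated. The unadjusted p was 0.106 in the default limma fit, 0.0252 with a trend and robust variance, in which the variance depends on intensity and rows of outlying variance are shrunk less (14.7% of all rows called), 0.0484 by an equal-variance test on each row alone (9.66% of all rows called) and 0.0444 without the dimmest 50% of rows (18.9% of the rows kept called).

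Cdh1, which encodes E-cadherin, had means closer together than any other of these genes except Cldn1. Cdh1 (NM_031334) had control intensities of 23688 and 27090 and MSCT intensities of 24445 and 25293. The MSCT values lay between the control values. The means of 14.63 ± 0.14 and 14.60 ± 0.03 (SD, n = 2 each) differed by -0.03 with a standard error of 0.19, and the interval as a fold ran from 0.688 to 1.40. The sign was lost with equal array medians (0.01) and without control replicate 2 (0.07).

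**Figure D2:**
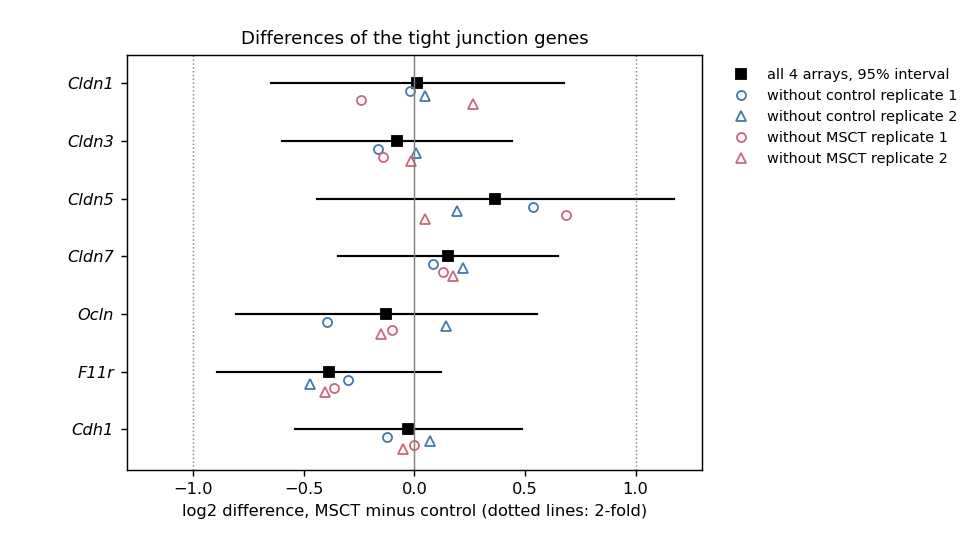
Log2 difference of each tight junction gene, MSCT minus control (x axis), as a black square with its 95% limma interval, with open symbols for the difference when 1 array is left out and dotted lines at 2-fold. All intervals cross 0, that of Cldn5 alone reaches past 2-fold, and the open symbols stay on one side of 0 for Cldn5, Cldn7 and F11r.

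As a group, the 7 genes went both ways. Of them 3 were higher and 4 lower on the MSCT arrays, with a median difference of -0.03 against -0.02 over all measured rows and 0.05 over all named genes. With equal array medians the median difference of the 7 genes was 0.01, so no direction can be given for the group. The median size of the difference, taken without sign, was 0.13, against 0.28 over all measured rows and 0.18 over the brightest 25% of rows, which held 5 of the 7 genes (Cldn3, Cldn7, Ocln, F11r and Cdh1). Groups without overlap were seen for 2 of the 7 genes, F11r and Cldn7, and for 45.8% of all rows. In the other 5 genes the difference was smaller than the larger gap between replicates, which follows from the overlap of the groups.

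The arrays themselves did not order the genes in one way. Control replicate 2 gave the highest value for Cldn3, Ocln and Cdh1, control replicate 1 for F11r, MSCT replicate 1 for Cldn1 and Cldn7, and MSCT replicate 2 for Cldn5. Control replicate 2 stood a little higher for the group, with a median deviation from each gene's mean of 0.11 against values from -0.05 to -0.04 on the other 3 arrays. The median difference of the 7 genes was -0.12 without control replicate 1 and 0.07 without control replicate 2. In all 5 genes among the brightest 25% of rows the 2 MSCT arrays were closer to each other than the 2 control arrays, which was also the case in 63.4% of the rows that bright.

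**Figure D3:**
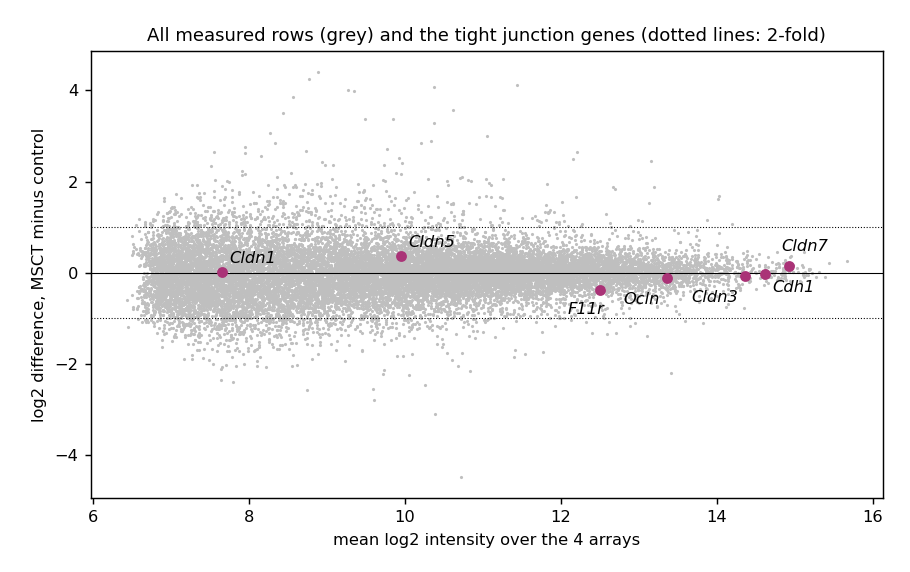
Difference between the groups (y axis, log2, MSCT minus control) against mean log2 intensity (x axis) for all 18350 measured rows in grey, with the 7 tight junction genes in purple and dotted lines at 2-fold. The spread of all rows narrows toward bright signals, and the genes lie within it, F11r at -0.38 and Cldn5 at 0.37 furthest from 0.

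The other genes of the junctions were taken from lists by role. Of 101 further genes, 46 were measured, 23 of them higher and 23 lower on the MSCT arrays, with a median difference of 0.00. None of the 46 was higher at an unadjusted p under 0.05, where 4.80% of all rows were, and 2 were lower, where 7.17% of all rows were. Neither passed the fold limit, and the smallest adjusted p was 0.344. These 2 genes were Cldn8 and Magi1.

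Cldn8 encodes a claudin of the distal colon that limits the passage of sodium between cells. Its log2 values were 12.06 and 11.96 for control and 11.47 and 11.24 for MSCT, without overlap. It fell by 0.66 (standard error 0.20, limma adjusted p = 0.351), with an unadjusted p of 0.0252. With any 1 array left out it kept its direction, between -0.77 and -0.54, and had an unadjusted p over 0.05. Cldn4, a sealing claudin of the colon, lay the other way, at 14.73 and 14.37 against 15.01 and 15.01, a difference of 0.46 (standard error 0.22, limma adjusted p = 0.493). Its unadjusted p was 0.0953 in the default limma fit and 0.00648 with the trend and robust variance. It was 0.0383 without the dimmest 50% of rows and 0.128 by an equal-variance test on each row alone. With 1 array left out the difference of Cldn4 lay between 0.28 (without control replicate 2) and 0.64 (without control replicate 1). Of the other claudins 6 of 20 were measured, with a median difference of 0.10 that was -0.09 without control replicate 1, and Cldn2 and Cldn15, whose proteins form ion pores, had no row by name.

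Of the plaque and polarity proteins 15 of 31 were measured, with a median difference of -0.01. Magi1, a scaffold of the junction with several PDZ domains, had control values of 12.29 and 11.95 and MSCT values of 11.47 and 11.21 on the log2 scale. It fell by 0.78 (standard error 0.23, limma adjusted p = 0.344), with an unadjusted p of 0.0229, and 0.0666 by an equal-variance test on each row alone. Its difference was -0.62 without control replicate 1 (unadjusted p of 0.0830) and -0.65 without MSCT replicate 2 (unadjusted p of 0.120). Tjp3 had no row by name.

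Of the other membrane proteins of the tight junction 8 of 12 were measured, with 0 called and a median difference of -0.02. The regulators of contractility at the junction had 9 of 12 genes measured and 0 called, with differences between -0.07 and 0.22. Of the adherens junction 7 of 14 genes were measured and 0 called. Ctnna1 and Ctnnb1, which encode the catenins that bind E-cadherin to actin, differed by 0.11 (standard error 0.22) and -0.02 (standard error 0.22). Both values turned their sign without some of the arrays. Of the desmosome 1 of 12 genes was measured.

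**Figure D4:**
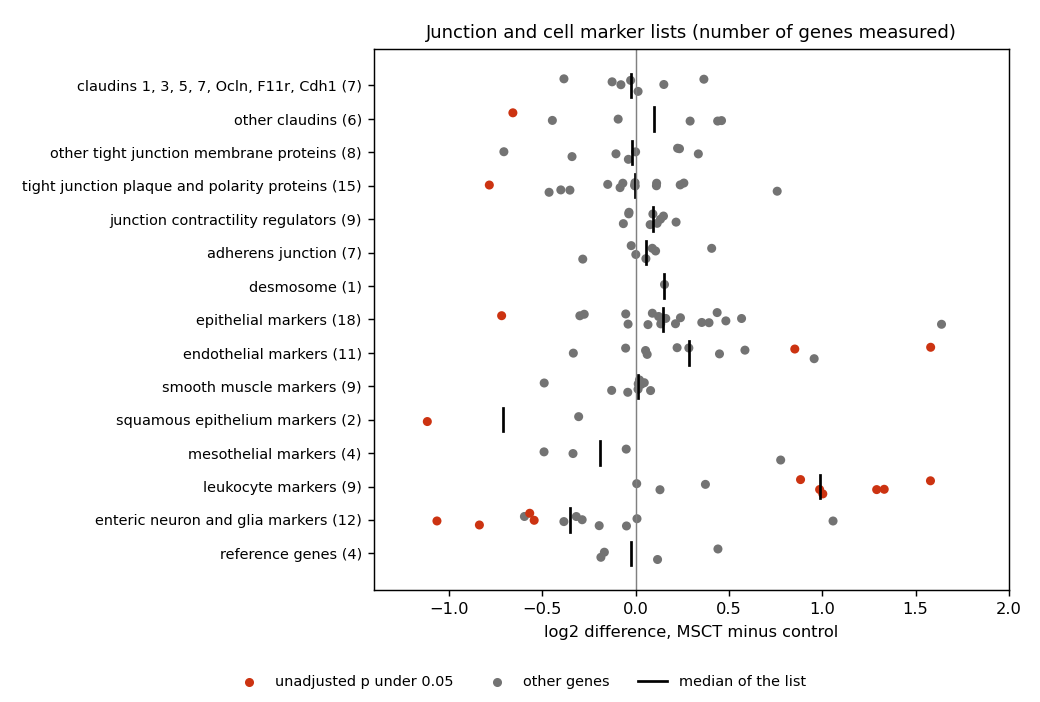
Log2 difference, MSCT minus control (x axis), of every measured gene in the lists of junction proteins and cell markers (rows), with black bars for medians and red points for an unadjusted limma p under 0.05. The 7 tight junction genes (top row) centre at -0.03 with no red point, and the leukocyte markers centre at 0.99 with 6.

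Markers of the cells in the pieces of colon were set beside these values. Epithelium and muscle were both present by their defining markers. Epcam was at 14.03 and 13.91 against 14.09 and 13.97, and Krt8, a keratin of simple epithelium, at 14.50 and 14.68 against 14.74 and 14.69. Acta2 and Des, genes of smooth muscle, had log2 means of 15.12 and 14.74 for control and 15.08 and 14.77 for MSCT. Vil1 and Myh11 had no row by name, and Krt5 and Krt14 of squamous epithelium were blank on all 4 arrays.

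The epithelial list had 18 of 26 genes measured, with a median difference of 0.15 and a summed log2 level of 228.70 to 232.79 for control and 233.90 to 234.62 for MSCT. Of these 0 were called higher and 1 was called lower, where 7.17% of all rows were, so the count is near the background. This gene was Elf3, a transcription factor of epithelial cells, which fell by 0.72 (standard error 0.19, limma adjusted p = 0.330) with an unadjusted p of 0.0152. Elf3 kept an unadjusted p under 0.05 with control replicate 1 left out (difference -0.79) but not with control replicate 2 (-0.64), MSCT replicate 1 (-0.71) or MSCT replicate 2 (-0.72) left out. The smooth muscle list had 9 of 15 genes measured and 0 called, where 12.0% of all rows were called in either direction. Its median difference was 0.01, with summed levels of 125.18 to 127.93 for control against 125.91 to 126.29 for MSCT.

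The endothelial list, set beside Cldn5, had 11 of 20 genes measured, with a median difference of 0.29 and 9 of 11 genes higher on the MSCT arrays. The summed level was 89.65 to 94.85 for control and 96.80 to 97.02 for MSCT. The defining markers Pecam1 (0.29, standard error 0.30) and Kdr (0.05, standard error 0.28) had no unadjusted p under 0.05, and Cdh5 had no row by name. Plvap, a protein of fenestrated capillaries, rose by 1.58 (standard error 0.21) and Eng by 0.85 (standard error 0.19), with unadjusted limma p-values of 0.00116 and 0.00797 and adjusted ones of 0.257 and 0.298. These were the 2 of 11 genes called higher, where 4.80% of all rows were. Without MSCT replicate 2 the difference of Eng was 0.79 with an unadjusted p of 0.0594, and with the trend and robust variance and all 4 arrays its unadjusted p was 0.0681. The part of endothelial content in the values of Cldn5 was not tested.

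Leukocyte markers are set here beside F11r since leukocytes carry its protein. Of 18 genes 9 were measured, with a median difference of 0.99, and 6 were called higher at an unadjusted p under 0.05, where 4.80% of all rows were. These were Tyrobp, Laptm5, Cd68, Csf1r, Coro1a and Lyz2, mostly genes of macrophages and other myeloid cells, with differences from 0.88 to 1.58 and a smallest adjusted p of 0.260. The other measured genes of the list, Cd4 (0.37), Cd3g (0.13) and Cd8a (0.01), had unadjusted limma p-values from 0.244 to 0.991. The summed level was 77.96 to 78.89 for control and 85.24 to 86.78 for MSCT. Ptprc and Cd3e had no row by name. F11r itself had a difference of -0.38 and was not called in the default limma fit. Enteric neuron and glia markers had a median difference of -0.35, with 10 of 12 genes lower and 4 of them at an unadjusted p under 0.05, where 7.17% of all rows were. Their summed level was 115.35 to 116.28 against 111.15 to 112.93. The squamous list had 2 of 12 genes measured, with a median of -0.71. Of these 1 was called lower, Krt15, where 7.17% of all rows were. Krt15 was among the dimmest 25% of rows. Its unadjusted p was 0.0126 in the default limma fit and 0.0523 with the trend and robust variance. By the equal-variance test on its row alone it was 0.0706. The mesothelial list had 4 of 7 genes measured (median -0.19, 0 called) and the reference genes 4 of 4 (median -0.03, 0 called). Of all rows 12.0% were called in either direction. The part of these other cells in the values of the tight junction genes was not tested.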

How the data were processed

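The authors labeled colon cDNA with Cy3, hybridized it to one-color NimbleGen arrays, read these on a GenePix scanner, processed the images in NimbleScan, and deposited 1 linear intensity per RefSeq transcript and array. RMA is named in the submitters' processing notes without a role, and background correction, scaling and the rule for blank rows are not given in the sources used here. Of 26420 rows, 8070 (30.5%) were blank on all 4 arrays. Value columns without a sample numbered 0.

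Intensities were converted to log2 with no pseudocount and no filter. Rows were named by accession through a RefSeq table (assembly GRCr8) that served for names alone (38.5% of measured rows). limma 3.58.1 in R 4.3.3 (lmFit, eBayes) compared MSCT with control over all measured rows. The sources used here name no test for the chips; an equal-variance test on each row alone was an alternative. The script was tested on simulated data. The genes and lists were chosen with earlier results of these data known, so no p is adjusted over a list. Beyond the tight junction genes, the text names list genes with an unadjusted p under 0.05 (up to 5 a direction, not all printed) and fixed markers. Python 3.11.15, pandas 2.3.3 and matplotlib 3.10.9 made tables and figures. Results of a gene fixed by role are not reported here.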

Additional observations from a re-analysis of the deposited data

How the results depend on the processing

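The values were recomputed with each array left out in turn, with the replicate block, with linear means, with equal array medians or quantile normalization, with a trend and robust variance, with an equal-variance test on each row alone, with a fold limit of 1.5, and without the dimmest 25% or 50% of rows. The count of tight junction genes with an unadjusted p under 0.05 was 1 (F11r) instead of 0 by the equal-variance test on each row alone, without the dimmest 50% of rows and with the trend and robust variance, and 0 under the others, apart from linear means and the fold limit, for which no such count was made. The screen called 0 where it was recomputed, and so did the adjusted p, which was not recomputed for linear means or the fold limit. Groups without overlap numbered 1 after quantile normalization and between 3 and 6 with 1 array left out, by construction since fewer arrays are compared. The median difference lay between -0.12 and 0.0700 with 1 array left out. Signs turned for Cldn1 (-0.24 without MSCT replicate 1, -0.02 without control replicate 1, highest 0.27), Cldn3 (0.0083 without control replicate 2, lowest -0.17), Ocln (0.14 and -0.39 without control replicate 2 and 1) and Cdh1 (0.011 with equal array medians, 0.0700 without control replicate 2, lowest -0.12). The same was seen for Ctnna1 (-0.061 to 0.28), Ctnnb1 (-0.21 to 0.16, and 0.015 with equal array medians), Pecam1 (-0.039 to 0.61), Kdr (-0.17 to 0.28), Acta2 (-0.26 to 0.18) and Des (-0.30 to 0.36, and -0.0068 with linear means). The cause was not tested.

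With the replicate block the median difference was -0.03 and 0 genes were called, and no other named gene lost or gained its call. The deviations of the arrays numbered 1 from their group means correlated at r = 0.23 over 18350 rows, which are not independent replicates, and 2 pairs do not settle whether the numbers pair the animals. No gene named here had several rows, so other choices of row gave the same values. Cldn1 left the table without the dimmest 25% of rows.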

Other observations

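The following values were picked after they were seen and carry no test. For Cldn5 the arrays ranked MSCT replicate 2, control replicate 1, MSCT replicate 1 and control replicate 2, from highest to lowest. This order was shared by 3 of the 11 measured endothelial markers, Pecam1, Kdr and Sox18, and by 2.23% of all measured rows. The other endothelial markers had other orders, among them Plvap and Eng, the 2 called higher. In Kdr, among the dimmest 25% of rows, control replicate 2 and MSCT replicate 1 were close, at 6.83 and 6.88. The part of endothelial content in this order was not tested. Pecam1 was at 10.30, 10.16, 9.96 and 9.52 on the log2 scale in that order of arrays, and Cldn5 at 10.45, 9.94, 9.82 and 9.60.

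Jam2, which encodes a junctional adhesion molecule known from endothelial cells, was at 10.65 on control replicate 1 and at 9.67, 9.36 and 9.55 on the other arrays, a difference of -0.71 (standard error 0.38, limma adjusted p = 0.528). Clmp, a related adhesion molecule of the junction, was at 13.86 on the same array and between 12.91 and 13.14 on the others. F11r was also highest on that array, at 12.77, but its value of 12.60 on control replicate 2 was above both MSCT arrays (12.28 and 12.33). Without control replicate 1 the difference of F11r was -0.30. The smooth muscle list also stood highest on control replicate 1. Its median deviation from each gene's mean was 0.24 there, against values from -0.13 to -0.01 on the other arrays. The list of other tight junction membrane proteins, which holds Jam2 and Clmp, was at -0.04 on control replicate 1. The share of all rows highest on control replicate 1 was not counted.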
